A study of Mus musculus with 12 samples.

Results

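A set of 10 genes of lipid droplet coats and of the enzymes that open them were followed in cultured mouse liver cells: Plin2, Plin3, Plin4, Plin5, Cideb, Pnpla2, Pnpla3, G0s2, Abhd5 and Lipe. They were taken by symbol from a list whose rule names no measured value, though earlier results of these data were known when it was drawn up, and they make up 10 of the 36144 genes listed. All 10 passed the filter for testing, a level of at least 1 TPM in at least 3 of the 12 libraries. Pnpla3 passed with exactly 3 libraries. TPM, the unit of the table, is a length-corrected share of a library's transcripts, so levels of different genes can be compared within a library.

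The cells were primary hepatocytes isolated by collagenase from a WT C57/Bl6J mouse and sequenced as poly-A RNA, with 3 libraries in each of 4 groups. Every group spent 16 h overnight in serum-free medium. Mock received none of the agents named next. FD received 10 µM forskolin, which raises cyclic AMP as glucagon does, and 1 µM dexamethasone, a synthetic glucocorticoid, for the 5 h before lysis. FDI received the same FD treatment after 1 h with insulin, at 100 nM by the design text, although the protocol names both 1 and 100 nM. FDMn received FD after MnCl2 at 6 µM had been added for the overnight period. No group received insulin or manganese without FD, so an effect of either agent on its own cannot be told apart from its effect in the presence of FD. The label names a single mouse and does not say that replicates were separate preparations, so p-values measure the spread between these libraries, which may be technical.

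A lipid droplet is a core of triglyceride and sterol ester under a single phospholipid layer. Perilipins coat that layer and limit the access of lipases to the core. In the liver, glucagon of the fasting state favours the release and oxidation of stored fatty acids, and insulin favours storage. Adipose triglyceride lipase, the product of Pnpla2, takes the first step of triglyceride breakdown, which the protein of Abhd5 activates and that of G0s2 inhibits.

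Across the libraries, 10900 to 11161 genes reached 1 TPM and replicates of a group correlated at 0.981 to 0.991 over genes. The tables give no read counts, so depth is unknown and no counting interval can be set. The first principal component, with 45.3% of the variance, set Mock apart from the other groups. On the second, with 12.4%, FD replicates 1 and 2 lay at 22.3 and 29.0 and FD replicate 3 at 7.98. FD replicate 3 thus lay between the other FD libraries and those of FDI and FDMn, which ranged from -14.6 to -5.89. Results that use FD are therefore also given, where the call changes, with FD replicate 3 as the sole FD library. All 7 hepatocyte markers found in the table exceeded 1 TPM in every library, and albumin (Alb) lay between 22527 and 32589 TPM. Of 6 adipocyte markers, Adipoq and Lep were listed at 0 in all 12 libraries. The 6 summed to between 4.31 and 6.25 TPM in Mock, between 8.99 and 12.3 TPM in FD, between 12.9 and 13.2 TPM in FDI and between 17.6 and 19.3 TPM in FDMn, and Cidec was the one marker above 1 TPM in every library. The 6 endothelial markers summed to 14.5 to 16.3 TPM in the Mock libraries. This was below the 18.9 to 27.7 TPM of FD, the 16.67 to 22.02 TPM of FDI and the 22.9 to 26.2 TPM of FDMn. The markers did not move together. Mean Stab2, Lyve1, Pecam1 and Cdh5 were higher in FD than in Mock, Lyve1 most, from 1.43 to 5.34 TPM. Mean Kdr was lower, from 0.719 to 0.242 TPM, and so was mean Tek, from 0.279 to 0.145 TPM. The 7 Kupffer cell markers summed to 2.60 to 4.40 TPM in the Mock libraries, 3.47 to 3.90 TPM for FD, 3.65 to 4.77 TPM for FDI and 4.72 to 5.71 TPM for FDMn. The 8 stellate cell markers summed to 7.10 to 8.20 TPM in the Mock libraries, 6.45 to 7.02 TPM for FD, 5.39 to 6.55 TPM for FDI and 5.20 to 6.37 TPM for FDMn. Lymphocyte markers summed to at most 0.324 TPM. The 5 cholangiocyte markers summed to between 196 and 236 TPM in Mock and between 74.8 and 83.4 TPM in FD. Their sum was between 129 and 159 TPM in FDI and between 72.3 and 81.2 TPM in FDMn. Most of it was Cldn4 and most of the rest Sox9, and every group mean of Krt19, Krt7 and Epcam was below 1 TPM. The part of any of these in the results below was not tested. In bulk RNA, fewer cells of a type and less RNA per cell cannot be told apart.

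Plin4 and Plin5 are neighbours on mouse chromosome 17 (GRCm38). Plin4 covers chr17:56100591-56109803 and Plin5 covers chr17:56111601-56117596, both protein-coding on the minus strand, with 1797 bases between them. Plin3 lies on the same strand 159879 bases beyond Plin5, at chr17:56277476-56292873. Plin2 lies at chr4:86648386-86670060 on the minus strand and G0s2 at chr1:193272161-193273217, also on the minus strand. The 250 bases before the RefSeq start (GRCm38.p6) are shown for the coat genes with the widest changes and for G0s2, the member that differed most between FDI and FD. Capitals in Plin4 and Plin5 mark TATAAG, and capitals in G0s2 mark a cyclic AMP half-element (TGACG read on the other strand). The Plin2 stretch held none of the motifs searched.
Plin4, chr17:56109783-56110032, minus strand: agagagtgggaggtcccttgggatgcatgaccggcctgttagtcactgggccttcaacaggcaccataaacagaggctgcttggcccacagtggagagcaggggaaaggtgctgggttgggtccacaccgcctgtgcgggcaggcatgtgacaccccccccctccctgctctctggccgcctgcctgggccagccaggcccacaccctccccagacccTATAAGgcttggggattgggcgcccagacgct
Plin5, chr17:56117549-56117798, minus strand: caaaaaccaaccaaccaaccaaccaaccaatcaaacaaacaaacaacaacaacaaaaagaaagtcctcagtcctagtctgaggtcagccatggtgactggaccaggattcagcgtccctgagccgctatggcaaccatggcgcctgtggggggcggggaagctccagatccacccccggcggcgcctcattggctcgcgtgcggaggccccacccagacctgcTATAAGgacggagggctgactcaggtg
Plin2, chr4:86670060-86670309, minus strand: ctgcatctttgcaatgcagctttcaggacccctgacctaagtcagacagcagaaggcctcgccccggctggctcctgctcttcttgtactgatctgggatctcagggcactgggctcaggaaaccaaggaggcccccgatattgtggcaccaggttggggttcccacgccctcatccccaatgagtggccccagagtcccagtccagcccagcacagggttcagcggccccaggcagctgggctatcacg
G0s2, chr1:193273189-193273438, minus strand: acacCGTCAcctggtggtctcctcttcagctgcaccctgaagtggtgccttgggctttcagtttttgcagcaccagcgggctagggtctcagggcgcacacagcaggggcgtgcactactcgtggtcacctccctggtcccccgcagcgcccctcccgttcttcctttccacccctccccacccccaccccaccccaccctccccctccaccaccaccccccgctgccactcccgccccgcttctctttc

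TATAAG began 32 bases before the start of Plin4 and 27 bases before the more upstream RefSeq start of Plin5. It was absent from the window of the other Plin5 start and from the windows of the other 8 members. This motif was added after the stretches had been seen. It was present in 6.65% of all 32851 RefSeq windows of the same 250 bases. Both strands were searched for every motif. The full palindromic glucocorticoid response element, present in 0.00913% of windows, and the DR1 repeat bound by PPAR receptors, present in 0.0335%, occurred in none of the 12 windows of the 10 members. The full cyclic AMP element TGACGTCA, present in 1.55% of windows, occurred 46 bases before the start of Pnpla3. The half-element TGACG, which lies within the full element and was present in 17.8% of windows, also occurred 246 bases before G0s2 and 128 bases before Abhd5. The forkhead letters TGTTTAC, present in 3.17%, occurred 119 bases before the second of the RefSeq starts of Lipe. A match of letters is a description of the sequence, not evidence of binding.

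**Figure D1:**
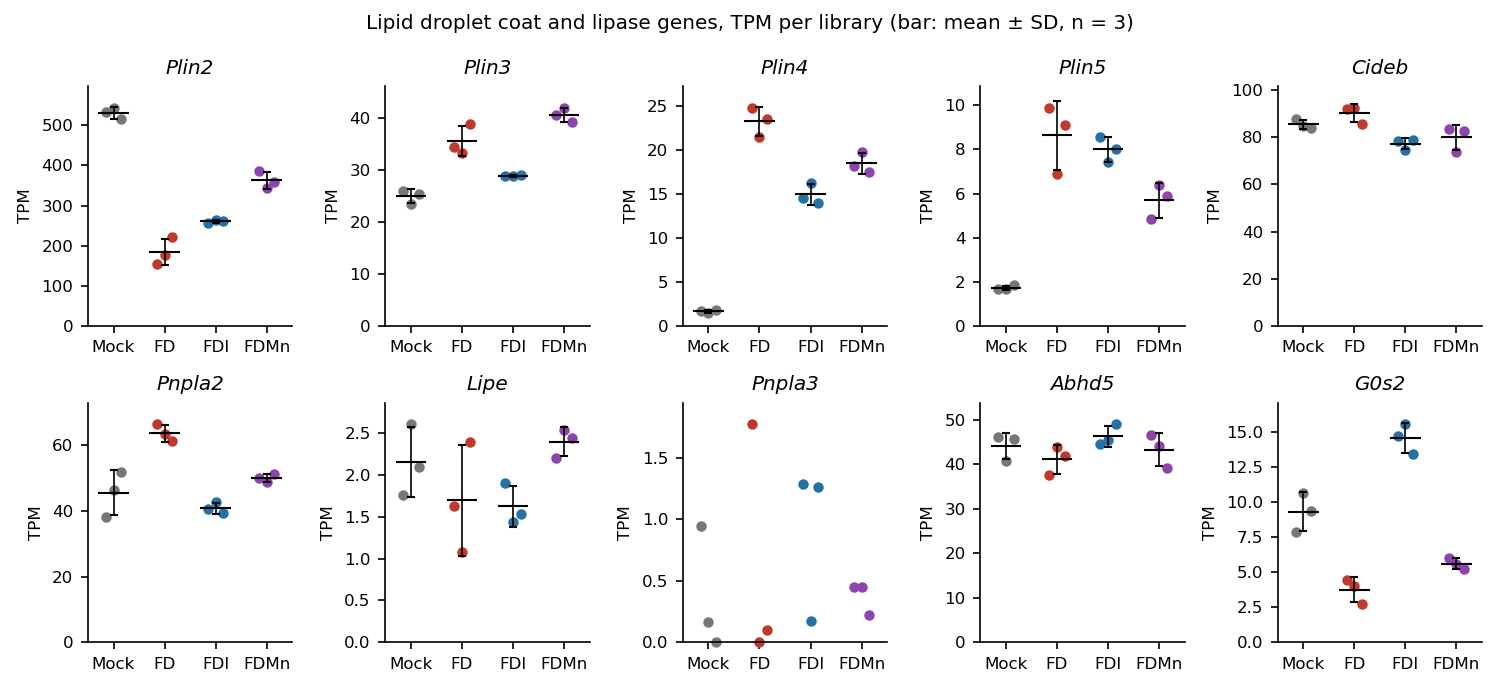
Level of each of the 10 genes in TPM (vertical axes, linear, from 0) in the 12 libraries, grouped as Mock, FD, FDI and FDMn (horizontal axes). Points are libraries and bars are the mean ± SD (n = 3), left out for Pnpla3, which was listed at 0 in 2 libraries. Plin2 was highest in Mock, Plin4 and Plin5 were near 2 TPM in Mock and higher in the other groups, and G0s2 was highest in FDI.

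FD changed the coat genes in opposite directions. Plin2, which encodes the main droplet coat protein of hepatocytes, fell, and Plin3, Plin4 and Plin5 rose. Pnpla2, the lipase gene, rose and G0s2, the gene of an inhibitor of that lipase, fell. Of the 10 members, 4 were higher in FD and 2 were lower at an adjusted p under 0.05, in a fit over all 11544 genes tested. By the same rule 11.2% of all genes tested were higher and 29.9% were lower. All 6 calls held in each of the 21 alternative settings.

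Plin2 stood at 533, 543 and 515 TPM in the Mock libraries and at 155, 177 and 221 TPM in the FD libraries. The groups did not overlap, and even the highest FD library was below every Mock library by more than the spread within either group. The mean fell from 530 ± 14.5 to 184 ± 33.4 TPM, with the SD over n = 3 libraries here and below. On the log2 scale Plin2 changed by -1.54 (SE 0.10, adjusted p = 1.5e-07). All log2 changes are of TPM + 1, a scale that understates the change of genes at low levels.

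Plin4 encodes a coat protein best known from adipose tissue and muscle, with a long repeated amphipathic region. Its level was 1.74, 1.44 and 1.80 TPM in Mock and 24.8, 21.6 and 23.6 TPM in FD. The lowest FD library was far above the highest Mock library. The means, 1.66 ± 0.197 and 23.3 ± 1.65 TPM, differed 14.1-fold (log2 change 3.19, SE 0.10, adjusted p = 1.5e-10).

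Plin5 encodes the perilipin of oxidative tissues, which tethers droplets to mitochondria. It stood at 1.67, 1.68 and 1.83 TPM in Mock and at 9.89, 6.90 and 9.13 TPM in FD. The FD libraries were more spread than those of Mock, yet all lay above them. The mean rose from 1.73 ± 0.0925 to 8.64 ± 1.55 TPM (log2 change 1.81, SE 0.14, adjusted p = 5.8e-07).

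Plin3 encodes a perilipin that moves from the cytosol onto forming droplets. The Mock libraries held 26.0, 23.4 and 25.5 TPM and the FD libraries 34.5, 33.4 and 38.9 TPM. The groups did not overlap, and Plin3 rose (log2 change 0.49, SE 0.07, adjusted p = 0.00016).

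Because Plin2 was so much the most abundant perilipin, the summed level of the 4 perilipin genes followed it, with 559 ± 13.5 TPM in the Mock libraries and 252 ± 35.8 TPM in those of FD. Plin2 was 94.9% ± 0.374 of the sum in Mock and 72.9% ± 3.36 in FD. The share of Plin4 was 0.298% ± 0.0413 in Mock and 9.39% ± 1.54 in FD, and that of Plin5 was 0.309% ± 0.0240 and 3.47% ± 0.818. The share of Plin3 was 4.48% ± 0.318 and 14.2% ± 1.07. A share also rises when Plin2 falls, so the shares are not results separate from that fall. Plin3 itself was 1.42-fold higher in FD than in Mock, and its share 3.18-fold higher. None of these shares overlapped between Mock and FD (exact two-sided permutation p = 0.1, the smallest that 3 against 3 can give). Over the 60 comparisons of sums, shares and ratios the lowest adjusted p was 0.109. With 3 against 3 no adjusted p could fall below 0.1, so this test could not pass 0.05 whatever the values.

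**Figure D2:**
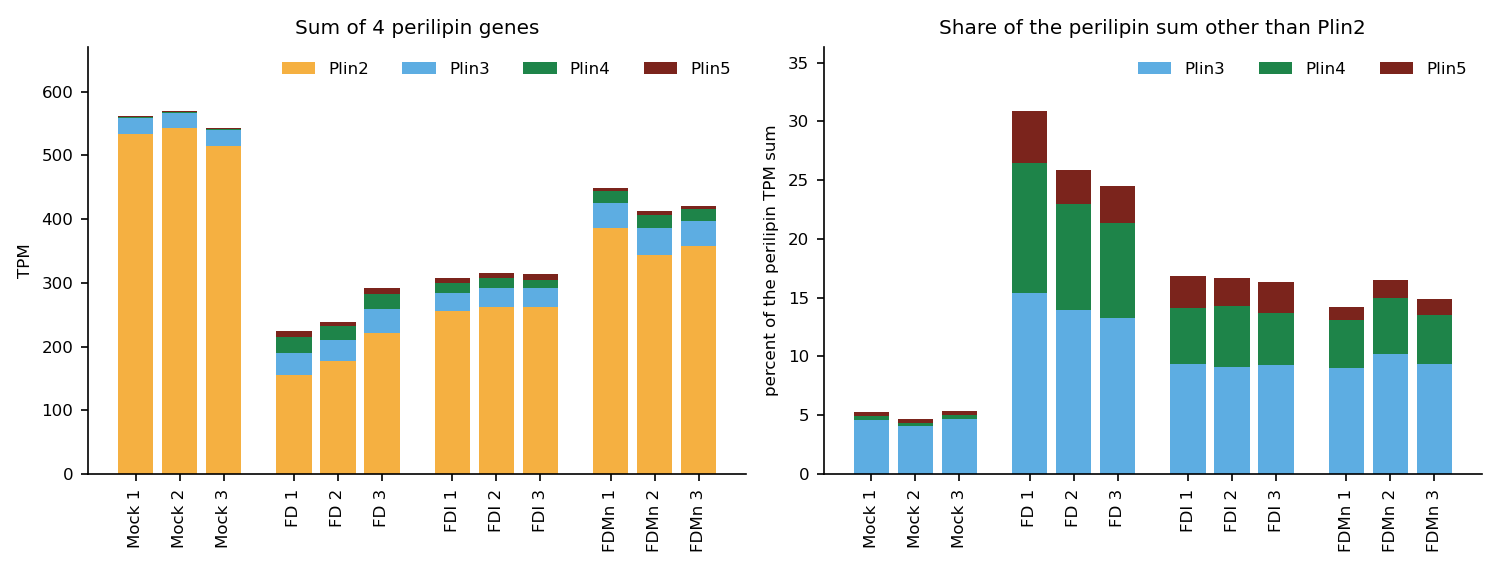
Left, the summed level of Plin2, Plin3, Plin4 and Plin5 in TPM in each of the 12 libraries (stacked bars, linear axis from 0). Right, the percent of that sum from Plin3, Plin4 and Plin5, with Plin2 making up the rest. Mock libraries had the highest sums and the smallest share of the 3 other perilipins, and the FD libraries the reverse.

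Cideb encodes a droplet protein of hepatocytes that takes part in droplet growth and in the loading of lipoproteins with lipid. It stood at 87.8, 84.7 and 84.1 TPM in Mock and at 92.2, 92.5 and 85.8 TPM in FD. The groups overlapped, and the difference did not pass the test (log2 difference 0.07, 95% interval -0.06 to 0.21, adjusted p = 0.36). With libraries rescaled by the median of gene ratios it passed (0.24, adjusted p = 0.012). Cideb shares 76.3% of its annotated exonic bases with Nop9 on the opposite strand, and no source used here says whether reads were assigned by strand. Nop9 stood at 20.4 ± 1.14 TPM in Mock, 15.1 ± 1.34 in FD, 20.2 ± 1.84 in FDI and 16.3 ± 0.475 in FDMn, below Cideb in each group.

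Among the lipases, Pnpla2 stood at 38.3, 46.4 and 51.8 TPM in Mock and at 66.3, 63.3 and 61.3 TPM in FD. Every FD library lay above every Mock library, although Mock was the group with the widest spread. The mean rose from 45.5 ± 6.82 to 63.6 ± 2.54 TPM (log2 change 0.49, SE 0.09, adjusted p = 0.0012). Lipe encodes hormone-sensitive lipase, which acts mainly on diacylglycerol and is switched on by protein kinase A. It was low throughout, at 1.76, 2.60 and 2.09 TPM in Mock and 1.62, 1.08 and 2.39 TPM in FD, and did not pass the test (log2 difference -0.25, 95% interval -0.64 to 0.15, adjusted p = 0.31). Part of the Lipe gene, 15.6% of its exonic bases, lies under an antisense transcript that the table does not list.

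Pnpla3 encodes a droplet-bound relative of the Pnpla2 lipase whose transcript is known to rise with carbohydrate feeding. It was listed at 0.942, 0.163 and 0 TPM in Mock, 1.77, 0 and 0.0994 in FD, 1.28, 0.171 and 1.26 in FDI and 0.453, 0.446 and 0.223 in FDMn. Libraries of 1 group thus differed by more than the groups did, and no comparison passed (adjusted p from 0.38 to 0.92). The 95% interval of FD against Mock ran from -0.72 to 1.01 on the log2 scale, so a change of either sign within that range remained compatible with these values.

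G0s2, the inhibitor gene, stood at 7.88, 10.6 and 9.35 TPM in Mock and at 4.48, 4.01 and 2.74 TPM in FD. All FD libraries lay below all Mock libraries. The mean was 9.29 ± 1.38 TPM in Mock and 3.74 ± 0.898 in FD (log2 change -1.13, SE 0.15, adjusted p = 6.6e-05). G0s2 lies within Lamb3 but shares 0 exonic bases with it.

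Abhd5, the co-activator gene, did not pass the test in any comparison. It stood at 46.1, 40.7 and 45.6 TPM in Mock and 37.5, 43.9 and 41.8 TPM in FD. The groups overlapped and the difference did not pass (log2 difference -0.10, 95% interval -0.29 to 0.08, adjusted p = 0.37). Its sign turned with the scaling of the libraries, to 0.06 with the median of gene ratios and 0.03 with quantile normalization. An antisense transcript not listed in the table overlies 15.9% of its exonic bases.

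The ratio of Pnpla2 to G0s2 was higher in every FD library than in any Mock library. It was 4.86, 4.36 and 5.54 in the Mock libraries and 14.8, 15.8 and 22.4 in the FD libraries, with means of 4.92 ± 0.596 and 17.6 ± 4.10. The ratio of Pnpla2 to Abhd5 was 1.04 ± 0.177 in Mock and 1.56 ± 0.182 in FD. Neither ratio overlapped between the groups (exact two-sided permutation p = 0.1 each). Hilpda, the gene of another inhibitor of this lipase, is in neither ratio and moved opposite to G0s2. Its mean was 9.75 TPM in Mock and 31.0 TPM in FD. The ratio to G0s2 is therefore not a balance of the lipase gene with all its inhibitor genes.

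**Figure D3:**
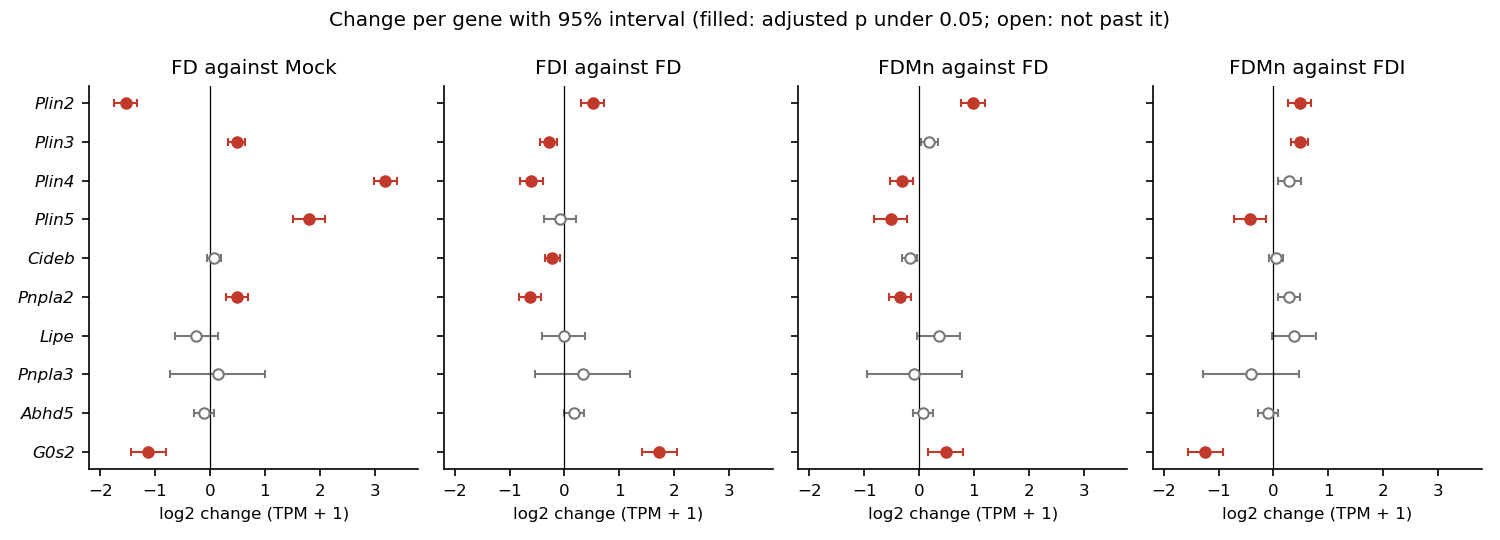
Log2 change of TPM + 1 (horizontal axes) of each of the 10 genes in 4 comparisons, with 95% intervals. Filled points passed an adjusted p of 0.05 and open points did not. FD moved Plin2 down and Plin4 and Plin5 up, and both FDI and FDMn lay above FD for Plin2 and G0s2 and below it for Plin4 and Pnpla2.

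Of the 6 members that FD had changed, 5 changed in the opposite direction with insulin before FD, and Plin5 did not pass. Plin2 and G0s2 were higher in FDI than in FD, and Plin3, Plin4, Cideb and Pnpla2 were lower. Of the 10 members, 2 were higher and 4 were lower, where 10.2% of all genes tested were higher and 4.35% were lower. The comparison of FD with Mock, this one and the next all use the 3 FD libraries. Their values are given side by side and not as independent evidence of each other. A member picked for its change from Mock to FD is thereby more likely to show the opposite sign here. How many of all genes changed by FD turned back was not counted.

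G0s2 showed the widest change. Its level in the FDI libraries was 14.7, 15.5 and 13.4 TPM, above every FD library and every Mock library. The mean of 14.5 ± 1.06 TPM was 3.88-fold that of FD (log2 change 1.73, SE 0.15, adjusted p = 1.4e-05) and also above Mock (log2 change 0.60, adjusted p = 0.0064). Pnpla2 stood at 40.6, 42.6 and 39.2 TPM in FDI, below all FD libraries (log2 change -0.63, SE 0.09, adjusted p = 0.00081). Against Mock the Pnpla2 difference did not pass (-0.14, adjusted p = 0.25), but it did with Mock replicate 1, the lowest Mock library, left out (-0.26, adjusted p = 0.019). The ratio of Pnpla2 to G0s2 was 2.81 ± 0.0989 in FDI, the lowest of the 4 groups.

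Plin2 was 256, 263 and 262 TPM in FDI, above the FD libraries and below the Mock libraries. Its mean of 260 ± 3.81 TPM was 1.41-fold that of FD (log2 change 0.51, SE 0.10, adjusted p = 0.0047). With FD replicate 3 as the sole FD library the change was 0.24 and did not pass (adjusted p = 0.084). Plin2 remained lower in FDI than in Mock (log2 change -1.02, adjusted p = 6.3e-06).

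Plin4 was 14.6, 16.3 and 14.0 TPM in FDI, lower than every FD library (log2 change -0.61, SE 0.10, adjusted p = 0.0013) and still 9.02-fold above Mock. Its neighbour Plin5, at 8.55, 7.42 and 8.04 TPM, lay within the range of FD and did not pass (log2 difference -0.09, 95% interval -0.38 to 0.21, adjusted p = 0.72). Whether the changes of Plin4 and Plin5 between FDI and FD differ from each other was not tested. Plin3 was 28.8, 28.8 and 29.0 TPM in FDI, below the FD libraries (log2 change -0.29, adjusted p = 0.018), a call that ended when any FDI library was left out (adjusted p from 0.051 to 0.054). Cideb was 78.4, 74.6 and 78.7 TPM and lower than in FD (log2 change -0.22, adjusted p = 0.031). The Cideb call ended without FD replicate 1 (adjusted p = 0.091) or 2 (0.088) and without FDI replicate 1 (0.062), 2 (0.10) or 3 (0.063). The Cideb difference was -0.15 (adjusted p = 0.39) with FD replicate 3 as the sole FD library.

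Abhd5 was 44.6, 45.4 and 49.0 TPM in FDI, above all FD libraries, but the difference did not pass (log2 difference 0.17, 95% interval -0.01 to 0.36, adjusted p = 0.21). Lipe, at 1.90, 1.44 and 1.52 TPM, overlapped with FD (adjusted p = 0.97). Set against Mock, 4 members were higher in FDI (Plin3, Plin4, Plin5 and G0s2) and Plin2 was lower, where 12.9% of all genes tested were higher and 25.4% were lower. The Plin3 call against Mock, a log2 change of 0.20 (adjusted p = 0.041), ended in 11 of 20 alternatives, among them those without any 1 of the FDI or FDMn libraries or without Mock replicate 2 (adjusted p = 0.14) or 3 (0.066).

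Manganese before FD raised Plin2 more than insulin did and G0s2 less. In FDMn, Plin2 and G0s2 were higher than in FD, and Plin4, Plin5 and Pnpla2 were lower. Of the 10 members, 2 were higher and 3 were lower, where 7.22% of all genes tested were higher and 7.9% were lower. Of these 5 calls, Plin2 alone held in all 21 alternatives. The cells had manganese for the overnight period and insulin for 1 h before FD, so agent and length of exposure cannot be told apart.

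Plin2 was 385, 344 and 359 TPM in the FDMn libraries. Each was above every FD and FDI library and below every Mock library. The mean of 363 ± 20.8 TPM was 1.97-fold that of FD (log2 change 0.99, SE 0.10, adjusted p = 5.8e-05) and 1.39-fold that of FDI (log2 change 0.48, adjusted p = 0.0061). It stayed below Mock (log2 change -0.55, adjusted p = 0.00079). Each step in the order Mock, FDMn, FDI, FD thus passed the test for Plin2. With FD replicate 3 as the sole FD library the change from FD to FDMn was 0.71 (adjusted p = 0.0043).

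G0s2 was 5.99, 5.56 and 5.20 TPM in FDMn, above all FD libraries and below all Mock and FDI libraries. The change from FD was 0.49 on the log2 scale (SE 0.15, adjusted p = 0.042). That call ended in 13 of 21 alternatives, among them those without FD replicate 2 (adjusted p = 0.057), FD replicate 3 (0.11), Mock replicate 3 (0.056) or any 1 of the FDI or FDMn libraries. Against FDI the difference was -1.24 (adjusted p = 0.00015) and held in all 20 alternatives. For G0s2 each step in the order FDI, Mock, FDMn, FD passed the test.

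Pnpla2 was 50.1, 48.7 and 51.2 TPM in FDMn, below all FD libraries (log2 change -0.34, adjusted p = 0.026) and within the range of Mock (0.14, adjusted p = 0.23). The call against FD ended in 7 of 21 alternatives, among them those without FD replicate 1 (adjusted p = 0.085), FD replicate 2 (0.058) or any 1 FDMn library. With FD replicate 3 as the sole FD library it was -0.29 (adjusted p = 0.26). The difference from Mock passed with libraries rescaled by the median of gene ratios (0.30, adjusted p = 0.024), after quantile normalization (0.28, adjusted p = 0.039) and without Mock replicate 3 (0.24, adjusted p = 0.045). The ratio of Pnpla2 to G0s2 was 8.99 ± 0.769 in FDMn, between Mock and FD and above every FDI library (exact permutation p = 0.1).

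**Figure D4:**
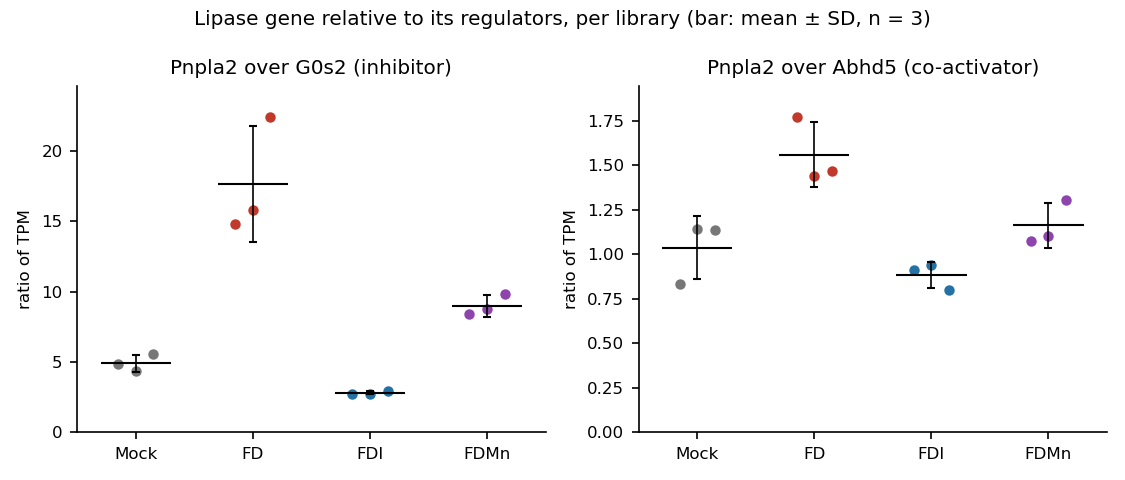
Ratio of Pnpla2 to G0s2 (left) and of Pnpla2 to Abhd5 (right) in TPM in each library (points, linear axes from 0), with the mean ± SD (n = 3) per group. For Pnpla2 over G0s2 no group overlapped another, in the order FD, FDMn, Mock, FDI. For Pnpla2 over Abhd5, FD was highest and Mock overlapped with both FDI and FDMn. Hilpda, the gene of another inhibitor of the lipase, is in neither ratio.

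Plin5 was 4.83, 6.37 and 5.90 TPM in FDMn, below all FD and FDI libraries and above all Mock libraries. The change from FD was -0.52 on the log2 scale (SE 0.14, adjusted p = 0.023), a call that ended in 7 of 21 alternatives, among them those without FD replicate 1 (adjusted p = 0.087) or 3 (0.058) and without FDMn replicate 1 (0.097) or 3 (0.053). The Plin5 difference was -0.60 (adjusted p = 0.065) with FD replicate 3 as the sole FD library. Plin4 was 18.2, 19.8 and 17.5 TPM, below all FD libraries (log2 change -0.32, adjusted p = 0.044). The Plin4 call ended in 12 of 21 alternatives, among them those without FD replicate 1 (adjusted p = 0.14) or 3 (0.084), without FDI replicate 1 (0.054) or 3 (0.053) and without any 1 FDMn library. The Plin4 difference was -0.34 (adjusted p = 0.21) with FD replicate 3 as the sole FD library. Both genes stayed far above Mock, Plin4 by 11.2-fold and Plin5 by 3.30-fold.

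Plin3 was 40.6, 42.1 and 39.4 TPM in FDMn, above every FD library, although the difference from FD did not pass (log2 difference 0.19, 95% interval 0.03 to 0.35, adjusted p = 0.096). It passed without FD replicate 3 (0.25, adjusted p = 0.029). Abhd5, Lipe and Pnpla3, which passed in no comparison, did not pass here either. Abhd5 was 46.5, 44.1 and 39.2 TPM (adjusted p = 0.62), Lipe 2.20, 2.54 and 2.43 TPM (adjusted p = 0.21) and Pnpla3 below 0.5 TPM. Cideb, at 83.6, 74.0 and 82.6 TPM, was below all FD libraries and did not pass (log2 difference -0.17, adjusted p = 0.080), except without FD replicate 3 (-0.21, adjusted p = 0.048).

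Set directly against each other, FDMn had more Plin2 and Plin3 and less Plin5 and G0s2 than FDI. That is 2 members higher and 2 lower, where 5.68% of all genes tested were higher and 11.9% were lower. Plin3 differed by 0.48 on the log2 scale (SE 0.07, adjusted p = 0.00074). The Plin5 difference, -0.43 (adjusted p = 0.046), ended in 14 of 20 alternatives, which include leaving out any library other than FD replicates 1 and 2. Plin4 (0.29, adjusted p = 0.057) and Pnpla2 (0.29, adjusted p = 0.0502) were higher in all FDMn libraries than in any FDI library and fell just short. Each of these 2 genes passed in 6 alternatives, which include both rescalings of the libraries and, for Plin4, leaving out Mock replicate 2 (adjusted p = 0.048) and, for Pnpla2, leaving out Mock replicate 1 (0.013) or 3 (0.027). Of the perilipin sum, 84.8% ± 1.21 was Plin2 in FDMn and 83.4% ± 0.293 in FDI, which overlapped (exact permutation p = 0.2). The sum itself was 428 ± 19.0 TPM in FDMn and 312 ± 3.84 in FDI. Against Mock, 3 members were higher in FDMn (Plin3, Plin4 and Plin5) and 2 were lower (Plin2 and G0s2), where 12% of all genes tested were higher and 30.6% were lower.

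The median log2 change over all genes tested was -0.15 for FD, -0.10 for FDI and -0.14 for FDMn, each against Mock, and between -0.04 and 0.04 in the comparisons among the other groups. Rescaling the libraries by the median of gene ratios brought it to about 0. The percent of calls that were lower then went from 72.7% to 49.1% for FD against Mock, from 66.3% to 48% for FDI against Mock and from 71.8% to 48.7% for FDMn against Mock. For FDI against FD it went from 30% to 45.1%, for FDMn against FD from 52.2% to 52.1% and for FDMn against FDI from 67.7% to 55.1%. Quantile normalization gave 55%, 55.2% and 54% for the comparisons with Mock, and 46.5%, 50.5% and 51.6% for FDI against FD, FDMn against FD and FDMn against FDI. Relative to that shift, the changes from Mock to FD were -1.37 for Plin2, 0.65 for Plin3, 3.31 for Plin4, 1.92 for Plin5, 0.65 for Pnpla2 and -0.99 for G0s2, all in the same direction and past the threshold.

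Genes around the 10 members came from 4 lists, which were described by counts and not tested as sets. For all 4 lists the counts stand beside the shares of all genes tested. From Mock to FD 11.2% of these were higher and 29.9% were lower. From FD to FDI the shares were 10.2% higher and 4.35% lower, and from FD to FDMn 7.22% higher and 7.9% lower. In the list of other droplet proteins, 19 genes were tested. From Mock to FD, 5 rose and 2 fell, with a median of -0.01. Cidec, which encodes a droplet fusion protein related to Cideb, rose from 5.24 to 9.63 TPM (adjusted p = 0.00027) and Acsl3, an acyl-CoA synthetase that feeds growing droplets, fell from 45.3 to 17.0 TPM (adjusted p = 7.7e-05). From FD, Cidec was higher again in FDI, at 12.9 TPM (adjusted p = 0.045), and in FDMn, at 18.0 TPM (adjusted p = 0.00066). Hsd17b13, which encodes a droplet-bound dehydrogenase of hepatocytes, was 424 TPM in FD, and fell with manganese to 242 TPM (adjusted p = 6.9e-06) and with insulin to 362 TPM (adjusted p = 0.020). In all, 2 of the 19 were higher and 1 lower in FDI than in FD, and 2 higher and 3 lower in FDMn.

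In the list of other lipases and lipase regulators, 21 genes were tested, and from Mock to FD 4 rose and 1 fell (median 0.11). Hilpda encodes a second droplet protein that inhibits adipose triglyceride lipase. It stood at 9.75 TPM in Mock and 31.0 TPM in FD (adjusted p = 9.0e-08), opposite in direction to G0s2. Both pretreatments raised it further, insulin to 81.3 TPM (adjusted p = 3.0e-06 against FD) and manganese to 47.9 TPM (adjusted p = 0.0011 against FD). Angptl8 and Angptl4 encode secreted regulators of lipoprotein lipase. From FD to FDI, Angptl8 rose from 20.8 to 61.9 TPM (adjusted p = 3.7e-05) and Angptl4 fell from 59.1 to 30.1 TPM (adjusted p = 0.00022). Mgll, the monoglyceride lipase gene that completes triglyceride breakdown, was 3.73 TPM in FD and fell with manganese to 1.21 TPM (adjusted p = 0.00022). From FD, 2 rose and 3 fell in FDI, and 3 rose and 5 fell in FDMn.

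In the list of triglyceride and sterol ester synthesis, 18 genes were tested, and from Mock to FD 5 rose and 5 fell (median 0.07). Lpin1, a phosphatidate phosphatase gene, rose from 6.56 to 33.7 TPM (adjusted p = 7.0e-08), and Soat2, the hepatocyte cholesterol esterification gene, fell from 17.9 to 6.97 TPM (adjusted p = 1.9e-05). Dgat2, which encodes the enzyme of the last step of triglyceride synthesis, was 51.7 TPM in FD, 97.8 TPM in FDI (adjusted p = 9.5e-06) and 84.7 TPM in FDMn (adjusted p = 8.0e-05). Lpin1 fell from FD to 13.1 TPM in FDI (adjusted p = 4.9e-05), and Soat2 rose from FD to 18.5 TPM in FDMn (adjusted p = 9.6e-05). From FD, 3 rose and 2 fell in FDI, and 3 rose and 3 fell in FDMn.

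In the list of fatty acid uptake and PPAR genes, 27 genes were tested, and from Mock to FD 7 rose and 5 fell (median 0.08). The smallest adjusted p values of this list were those of Cpt1a, the gate of mitochondrial fatty acid entry, which rose from 19.8 to 160 TPM (adjusted p = 4.4e-12), and Ppara, a receptor gene of fatty acid oxidation, which rose from 2.13 to 33.0 TPM (adjusted p = 1.2e-09). From FD, Slc27a2, a fatty acid transport gene, fell from 43.3 to 23.9 TPM in FDMn (adjusted p = 5.8e-05), and Slc27a1, another member of that family, rose from 2.70 to 7.33 TPM (adjusted p = 0.00026). Pdk4, which restrains glucose oxidation, was 18.8 TPM in FD and fell with insulin to 7.85 TPM (adjusted p = 0.0012). Fgf21 and Acot2 rose with insulin, with smaller adjusted p values than Pdk4. Fgf21 went from 0.121 TPM in FD, with replicates 1 and 2 listed at 0, to 4.45 TPM (adjusted p = 1.4e-05). Acot2 went from 5.22 to 10.6 TPM (adjusted p = 0.00013). From FD, 2 rose and 1 fell in FDI, and 4 rose and 6 fell in FDMn.

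**Figure D5:**
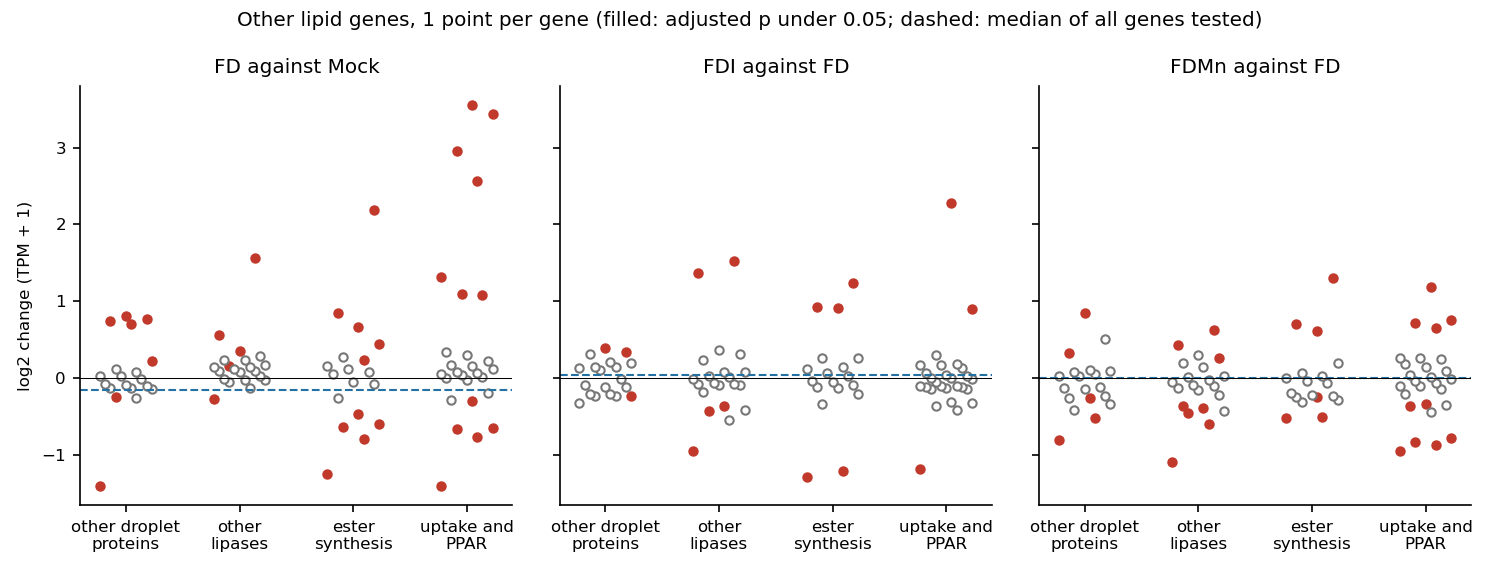
Log2 change of TPM + 1 (vertical axis) of the genes of the 4 lists in FD against Mock, FDI against FD and FDMn against FD, with 1 point per gene. Filled points passed an adjusted p of 0.05, and the dashed line is the median of all genes tested. Each list held genes that rose and genes that fell in each comparison.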

How the data were processed

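The authors deposited 1 table of TPM for 36144 genes in 12 libraries. The submitters' processing notes list kallisto 0.44.0, DESeq2 and the build GRCm38.p6, with no role for each. Not given in the sources used here are the annotation release, the filters and the strand setting. The table holds no counts, so no count test was run. Values were tested as log2(TPM + 1) in R 4.3.3 by limma 3.58.1 (prior variance following intensity), all 12 libraries in 1 fit, two-sided, and Benjamini-Hochberg adjustment over the 11544 genes with at least 1 TPM in at least 3 libraries, at 0.05. The script was tested on simulated data. Sums, shares and ratios were compared by exact permutation. All 10 members are named, with up to 4 genes per list and comparison eligible by smallest adjusted p. The members and lists were chosen with earlier results of these data known. Positions are from GENCODE M21 (GRCm38), where 35933 symbols matched, and sequences from RefSeq. Alternatives were 2 pseudocounts, no filter, 2 rescalings, no trend, fits of only the groups compared, a replicate block, and leaving out each library. FD represented by replicate 3 was added after the data were seen.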

Additional observations from a re-analysis of the deposited data

How the results depend on the processing

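Across the comparisons, each called change of a member was counted once per alternative setting. The call was kept 560 times and lost 77 times, and no called change turned its sign. Many of these counts come from the same fit, so they are not separate checks. The count of members called in FDMn against FD moved most, from 5 to 1 with no filter on low values, 2 when only the groups compared were fitted, 2 with FD replicate 3 alone for FD, and 1 to 5 when single libraries were left out. Sign changes occurred 24 times, in differences that did not pass. With median-of-ratios scaling and quantile normalization, in that order, Abhd5 turned to 0.059 and 0.032 in FD against Mock and to 0.13 and 0.11 in FDMn against Mock, and Cideb to 0.063 and 0.011 in FDMn against Mock. Quantile normalization turned Pnpla3 to -0.066 in FDMn against Mock, and a pseudocount of 0.1 turned it to 0.46 in FDMn against FD. With FD replicate 3 alone, Lipe turned to 0.12 against Mock and -0.0022 in FDMn against FD, and Pnpla3 to -0.26 and 0.32. Leaving out single libraries gave -0.084 to 0.040 for Abhd5 and -0.13 to 0.35 for Pnpla3 in FDMn against Mock, -0.19 to 0.16 for Lipe and -0.22 to 0.0073 for Plin5 in FDI against FD, -0.32 to 0.43 for Pnpla3 in FD against Mock and -0.35 to 0.39 in FDMn against FD. The cause of these changes was not tested. Depth is unknown, so the counting error of members at low levels cannot be given. Pnpla3 and Lipe had the largest standard errors, 0.40 and 0.18.

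Replicate numbers did not pair the libraries: over 18 same-numbered pairs the correlation of deviations from the group means was -0.10 to 0.07, and 5 of 12 libraries correlated best with their own number. With the replicate number as a block, the counts of members called were 6 for FD against Mock, 6 for FDI against FD, 4 for FDMn against FD, 3 for FDMn against FDI, 4 for FDI against Mock and 5 for FDMn against Mock, against 6, 6, 5, 4, 5 and 5 without it.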

Other observations

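The genes whose level followed Plin2 most closely over the 12 libraries, among 8684 genes with a mean of at least 5 TPM, were Tnk2 (Pearson r of log2 values 0.98), Fam110a (0.976), Slc25a37 (0.972), Steap4 (0.969) and Apobec1 (0.967). Apobec1, which encodes the enzyme that edits the Apob transcript, stood at 136 TPM in Mock, 35.8 in FD, 61.2 in FDI and 76.6 in FDMn, in the same order of groups as Plin2. Slc25a37, a mitochondrial iron importer gene, stood at 39.1, 9.98, 17.8 and 21.1 TPM in those groups. Pnpla2 had looser matches, with Wdr26 (0.925), Hpgd (0.887), Ccng2 (0.886), Cdh5 (0.879) and Sorbs3 (0.877). The 12 points are 4 groups of 3, each sharing its treatment, and the values are given as a description.

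Among the members themselves, the highest r with Pnpla2 in size was that of G0s2, at -0.816, and with Plin2 that of Plin5, at -0.892. Plin4, which shares its neighbourhood with Plin5, stood at -0.82 with Plin2.

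Fabp4, a fatty acid binding protein gene known from adipocytes and macrophages, was 3.39, 3.02 and 1.44 TPM in Mock and 17.6, 25.3 and 21.4 TPM in FDMn (log2 change 2.66, limma adjusted p = 4.2e-07). Every FD library (20.8, 20.4 and 18.3 TPM) and every FDI library (15.7, 15.8 and 14.2 TPM) was also above Mock. Of the 6 adipocyte markers, Adipoq and Lep were listed at 0 in all 12 libraries. The sum of the 6 nevertheless rose with Fabp4, from 4.31 to 6.25 TPM in Mock to 17.6 to 19.3 TPM in FDMn. It was 8.99 to 12.3 TPM in FD and 12.9 to 13.2 TPM in FDI. Most of the sum was Cidec, with a mean of 5.24 TPM in Mock and 18.0 TPM in FDMn. The 7 Kupffer cell markers summed to 2.60 to 4.40 TPM in Mock and 4.72 to 5.71 TPM in FDMn, and in FD and FDI they overlapped with Mock. Which cells held the Fabp4 transcript was not tested.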
